A study of Mus musculus with 14 samples.

Results

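Of 116516 regions covered by FLAG peaks on chromosomes 1 to 19, 11907 held a peak in all 6 FLAG ChIP-seq lists of the study, and 3056 of these lay more than 5000 bp from every H3K4me3 peak. The 3056 members are the constant FLAG regions away from H3K4me3. They were found by merging the FLAG peaks of the 6 lists where they share at least 1 bp, keeping the merged regions with a peak in every list, and removing those within 5000 bp of a peak in any of the 6 H3K4me3 lists. The members were thus chosen by presence of a peak and by distance to H3K4me3. Both are therefore descriptions here. Breadth and height were not chosen directly, but each peak had to pass the caller's threshold. The extent of the merged peaks also enters the overlap and the distance to H3K4me3.

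Neural stem cells from the hindbrain of e15.5 mouse embryos, cultured as neurospheres, gave the lists. The 3 K27M-Tag cultures had the genotype Nestin-cre; H3f3aLSL-K27M-Tag/+ and the 3 WT-Tag cultures the genotype Nestin-cre; H3f3aLSL-WT-Tag/+. Both genotypes thus carry the Cre driven by Nestin, 1 tagged allele of H3f3a and 1 allele without the tag, and they differ in the K27M substitution of the tagged histone. Each culture gave 1 list with the FLAG antibody M2, which binds the tag, and 1 list with an antibody against H3K4me3. All cultures were female per the labels except WT-Tag replicate 3, which was male. FLAG in cells without the tag was not analysed here, so the level of signal that does not come from the tagged histone is not known.

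H3f3a encodes H3.3, a histone variant placed into chromatin outside DNA replication. The HIRA complex deposits it at active genes and at enhancers, and ATRX with DAXX deposits it at telomeres and other heterochromatin. Trimethylation of lysine 4 on histone H3 marks active promoters, whereas active enhancers mostly carry monomethylation of the same residue. Replacement of lysine 27 of H3.3 by methionine occurs in diffuse midline glioma of children and inhibits the methyltransferase complex PRC2.

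The FLAG lists held 32466 to 87258 peaks on the autosomes and the H3K4me3 lists 30884 to 37627. No read totals came with the lists, but the deposited fold and p of a peak fix the number of fragments piled up at its summit and the local background against which it was called. A unique pair of values was found for every FLAG peak. The background coverage of a FLAG list, its most common local background, was 3.09 to 3.60 fragments. Summit coverage is given below as the highest summit pileup of a list in a region divided by that background coverage, and breadth as the number of bases of the region covered by peaks of that list. Median summit pileups at the members were 26, 24 and 30 fragments in the 3 K27M-Tag lists against 21, 24 and 24 in the 3 WT-Tag lists. Single regions therefore carry a counting error of several fragments.

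Far from H3K4me3, a peak in all 6 lists was the exception. Of the 46891 FLAG regions more than 5000 bp from H3K4me3, 23583 (50.3%) were present in 1 list only, 8683 in 2, 5684 in 3, 3236 in 4, 2649 in 5 and 3056 (6.52%) in 6. The share present in all 6 was 5.99% of the 33557 regions that lay within 5000 bp of H3K4me3 without touching it, called flanking here, and 18.97% of the 36068 regions that overlapped H3K4me3. The constant regions consisted of 25.7% members, 16.9% flanking and 57.5% overlapping regions. The number of members differed by more than 1.5 times under stricter definitions. It was 1631 when every list was reduced to the 32466 peaks with the highest score, 1123 when each was reduced to its upper 50%, and 353 when a list counted only where its peaks covered at least 50% of the merged region.

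The merged length of a member had a median of 1203.5 bp and ranged from 344 to 6684 bp. Between 69.2% and 74.7% of members were covered by 1 single peak in a given list. The distance between the outermost of the 6 summits in a member had a median of 389 bp, with a 10th percentile of 134 bp and a 90th percentile of 962 bp, and was at most 200 bp in 22.4% of members. The corresponding medians were 448.5 bp at flanking and 517 bp at overlapping regions, whose merged lengths were also greater, with medians of 1238.5 and 1786 bp. Across the 3056 members, Spearman's rho of breadth between 2 lists was 0.77 to 0.83 within K27M-Tag, 0.54 to 0.66 within WT-Tag and 0.38 to 0.49 between genotypes. For summit coverage it was 0.68 to 0.70, 0.47 to 0.55 and 0.30 to 0.36. Members are not independent points, and lists of 1 genotype may share a control, so these values only describe how alike the lists were.

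Members were wider in the K27M-Tag lists. Their median breadth was 868 bp in K27M-Tag replicate 1, 701.5 bp in replicate 2 and 932.5 bp in replicate 3, against 396.5, 586 and 560.5 bp in WT-Tag replicates 1 to 3. All K27M-Tag values lay above all WT-Tag values. The means were 834 ± 119 bp and 514 ± 103 bp (SD, n = 3 each), a ratio of 1.62 with p = 0.1 in a two-sided exact permutation test, the smallest p that 3 against 3 lists allow. The bases covered within members were 3.07, 2.55 and 3.22 Mb in K27M-Tag against 1.53, 2.16 and 2.10 Mb in WT-Tag, or 2.95 ± 0.355 Mb against 1.93 ± 0.349 Mb. As part of all bases covered by a list they were smaller in K27M-Tag, at 6.98%, 8.09% and 6.51% against 13.9%, 11.2% and 11.2% (exact permutation p = 0.1). The K27M-Tag lists were also longer, with 57061 to 87258 peaks against 32466 to 46880. With every list reduced to 32466 peaks, the median breadth of the 1631 members left differed by 417 bp between genotypes, against 320 bp with full lists. The reduction removed low-scoring peaks and left the boundaries of the others unchanged. It therefore cannot tell whether sequencing depth or the control moved breadth.

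Summit coverage differed less. Its median over members was 8.23, 7.19 and 8.33 times the background coverage in K27M-Tag against 6.80, 6.96 and 7.21 times in WT-Tag. K27M-Tag replicate 2 lay below WT-Tag replicate 3, so the genotypes overlapped. The means of 7.92 ± 0.634 and 6.99 ± 0.207 (SD, n = 3 each) gave p = 0.2 in the two-sided exact permutation test. The local background moved with genotype too. It exceeded 1.5 times the background coverage at 14.2%, 8.34% and 11.3% of members in K27M-Tag against at 16.7%, 15.2% and 23.4% in WT-Tag. At the 1608 members without such a local background in any list, the difference in median breadth was 303 bp, against 320 bp at all members, and that in median log2 summit coverage was 0.21, against 0.18 at all members (exact permutation p = 0.1, against 0.2 at all members).

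**Figure D1:**
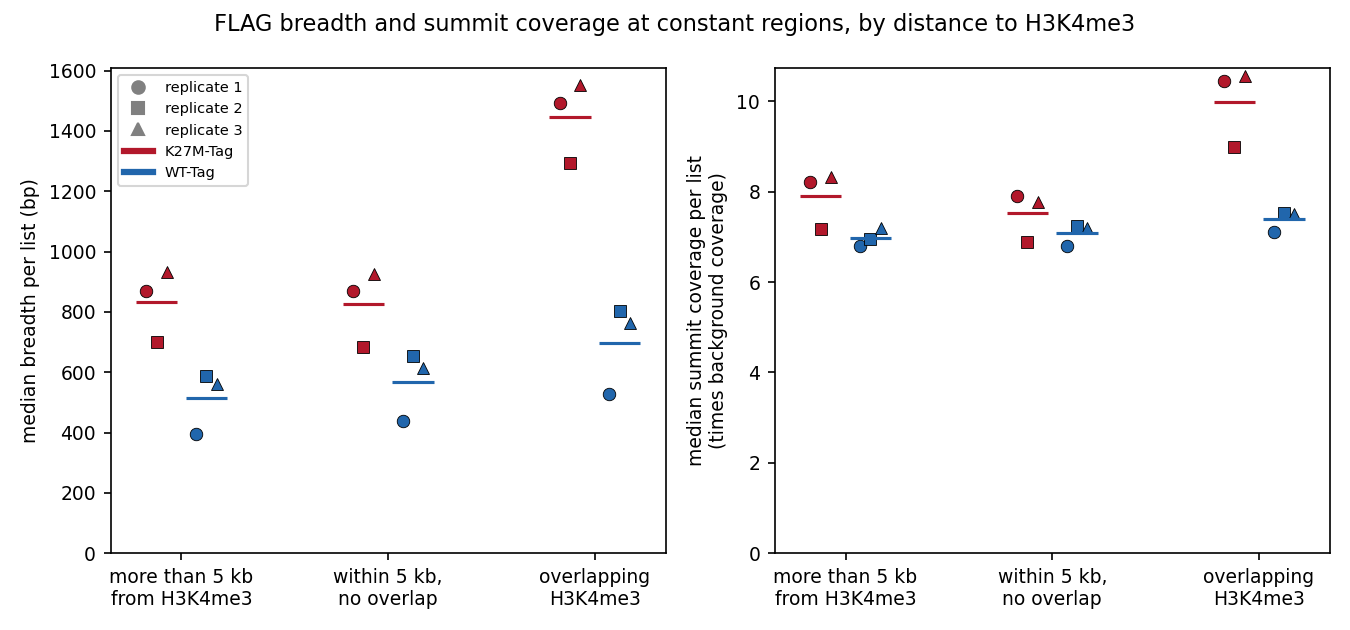
Median breadth in bp (left) and median summit coverage in multiples of the background coverage (right) over constant FLAG regions in each of the 6 FLAG lists, for members (left group), flanking and overlapping regions. Symbols are replicates, red K27M-Tag and blue WT-Tag, and horizontal lines are means of 3 lists. Breadth of members runs from 701.5 to 932.5 bp in red and from 396.5 to 586 bp in blue, and both measures stand highest in red at overlapping regions.

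Single members were tested with limma on log2 values over all 11907 constant regions, with Benjamini-Hochberg adjustment and a threshold of 0.05. By breadth, 902 members (29.5%) were wider in K27M-Tag, where 43.5% of all constant regions were, and 31 (1.01%) were narrower, where 0.563% of all were. By summit coverage, 714 members (23.4%) were higher in K27M-Tag, against 37.7% of all constant regions, and 102 (3.34%) were lower, against 1.81% of all. The share of wider and of higher members thus lay below the background of all constant regions, and the share of narrower and lower members above it. This was not particular to members. Flanking regions differed from the background in the same directions and further, with 24.9% wider, 16.7% higher, 1.24% narrower and 4.18% lower. Of overlapping regions, 55.2% were wider and 50.3% higher. The number of calls depended on which list was left out. The shares of all constant regions under these fits are not given here. Without K27M-Tag replicate 1 there were 412 wider and 461 higher members, and 375 and 374 when replicate 3 of that genotype was left out. The lower members numbered 54 without WT-Tag replicate 3. The narrower members numbered 13, 11 and 20 without K27M-Tag replicates 1, 2 and 3, and 51, 13 and 6 without WT-Tag replicates 1, 2 and 3.

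The 2 measures were never called in opposite directions. Of the members, 463 (15.2%) were both wider and higher, where 27.3% of all constant regions were. Another 439 (14.4%) were wider with no call in summit coverage, against 16.2% of all, and 251 (8.21%) were higher with no call in breadth, against 10.4% of all. Both narrower and lower were 11 members (0.360%), against 0.244% of all, and at 0 members were the measures called in opposite directions (0% of all constant regions for wider and lower, and 0% for narrower and higher). A call in at least 1 measure was made at 1275 members (41.7%), against 56.0% of all constant regions. Across members, the log2 changes of the 2 measures had a Pearson's r of 0.67, and both come from the same peaks. Without a test, all 3 K27M-Tag lists were wider than all 3 WT-Tag lists at 1312 members (42.9%), against 58.3% of all constant regions, and narrower at 72 (2.36%), against 1.34% of all. In summit coverage all 3 K27M-Tag lists were higher at 839 members (27.5%), against 42.4% of all, and lower at 189 (6.18%), against 3.73% of all.

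The median change between genotypes was smaller at members than at regions overlapping H3K4me3. The median log2 change of breadth, K27M-Tag minus WT-Tag, was 0.63 at members, 0.49 at flanking regions, 0.99 at overlapping regions and 0.81 at all constant regions, and it was positive at 81.7% of members. The median log2 change of summit coverage was 0.18 at members, 0.07 at flanking regions, 0.42 at overlapping regions and 0.31 over all, and positive at 70.03% of members. The median of all constant regions itself was shifted by 0.91 in log2 breadth and 0.32 in log2 summit coverage between genotypes. Relative to that shift the median change at members was -0.29 in breadth and -0.14 in summit coverage, so the direction for a typical member depends on the scaling. With each list centred on its median, 110 members (3.60%) were wider, where 8.01% of all constant regions were, and 448 (14.7%) narrower, where 11.4% of all were. In summit coverage 107 members (3.501%) were then higher, against 9.05% of all, and 573 (18.75%) lower, against 12.0% of all.

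**Figure D2:**
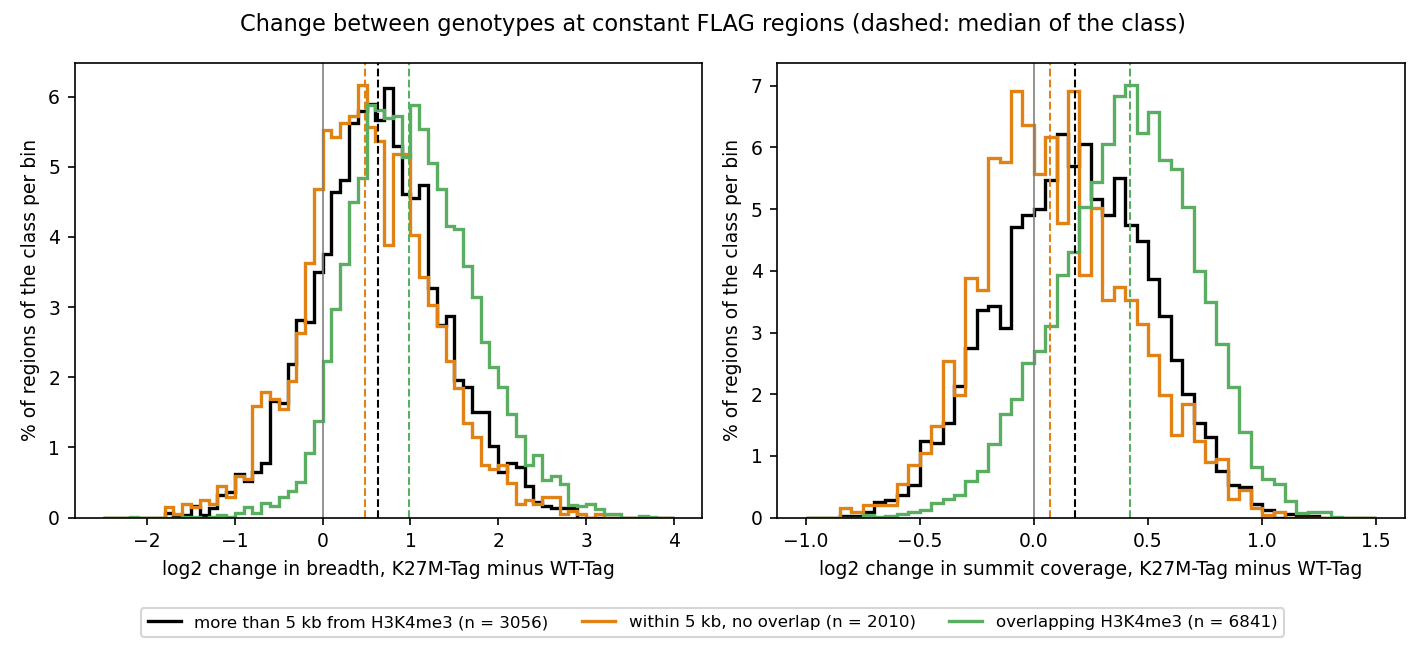
Distribution over regions of the log2 change between genotypes in breadth (left) and summit coverage (right), in % of the regions of each class per bin of equal width. Black shows the 3056 members, orange 2010 flanking and green 6841 overlapping regions, and dashed lines are the class medians. For members these medians are 0.63 for breadth and 0.18 for summit coverage, between those of the other classes.

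Within each list, members could be compared with the overlapping regions of the same library. Members minus overlapping regions gave differences in median breadth of -624, -593.5 and -618.5 bp in K27M-Tag replicates 1 to 3, and of -129.5, -217 and -203.5 bp in the 3 WT-Tag lists. Members were narrower in every list. The mean difference was -398 bp over 6 of 6 lists (two-sided exact sign-flip permutation p = 0.031, the smallest that 6 lists allow, and 0.143 after Benjamini-Hochberg adjustment over the 10 tests of this kind). In median log2 summit coverage the differences were -0.34, -0.32 and -0.34 in K27M-Tag against -0.07, -0.12 and -0.06 in WT-Tag, with a mean of -0.21 and the same exact p. The gap between members and overlapping regions was larger in K27M-Tag. K27M-Tag minus WT-Tag it differed by -429 bp and by -0.26 in log2 summit coverage, with no overlap between genotypes (exact permutation p = 0.1, adjusted 0.143). With lists of equal size the latter difference was -0.13. A longer merged region overlaps H3K4me3 more easily, and median merged length was 1786 bp at overlapping regions against 1203.5 bp at members. The rule thus favours narrower members. Its part in the gap, and in the genotype difference of the gap, was not tested.

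Members stood close to the flanking regions. In median breadth they differed by -0.5, 18.5 and 6.5 bp in K27M-Tag, but by -42.5, -67.5 and -53.5 bp in WT-Tag, with a mean of -23.2 ± 35.7 bp (SD, n = 6 lists, exact sign-flip permutation p = 0.21875). In median log2 summit coverage the mean difference was 0.03 ± 0.06 (SD, n = 6 lists, exact p = 0.375). The genotypes did not overlap in either difference. K27M-Tag exceeded WT-Tag by 62.7 bp and by 0.09 in log2 summit coverage (exact permutation p = 0.1 each, adjusted 0.143), opposite in sign to the comparison with overlapping regions.

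The distance from a member to the nearest H3K4me3 peak had a median of 15257 bp, quartiles of 8848 and 29723.8 bp and a maximum of 468952 bp. Between 5 and 10 kb lay 931 members, between 10 and 20 kb 959, between 20 and 50 kb 794, between 50 and 100 kb 250 and between 100 and 500 kb 122. Median breadth in WT-Tag was smaller in the farthest group, with medians of 421, 603 and 579 bp at 5 to 10 kb and of 349, 512 and 503 bp at 100 to 500 kb in replicates 1 to 3. In K27M-Tag the same medians were 879, 715 and 918 bp and 733.5, 644 and 899 bp. The share of wider members was 27.1%, 28.2%, 31.1%, 36.0% and 35.2% from the nearest to the farthest group, and the median log2 change of breadth 0.56, 0.53, 0.69, 0.75 and 0.80. Lower summit coverage in K27M-Tag was called at 43 members (4.62%) of the nearest group and at 1 (0.820%) of the farthest. Over all constant regions, 43.5% were wider and 1.81% lower. Differences between the distance groups were not tested.

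**Figure D3:**
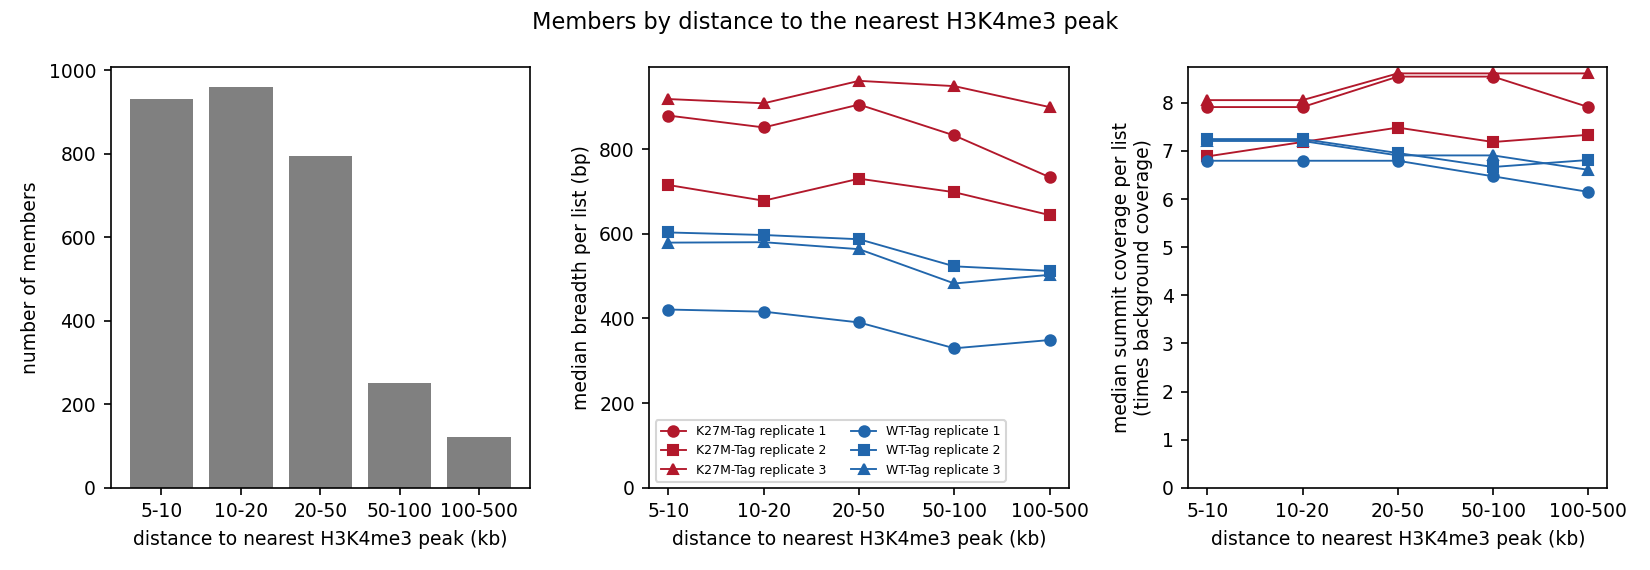
Number of members (left), median breadth in bp (middle) and median summit coverage in multiples of the background coverage (right) by distance to the nearest H3K4me3 peak in kb. Each line is 1 FLAG list, red K27M-Tag and blue WT-Tag. At every distance the 3 red lines lie above the 3 blue lines in breadth, and the first 2 groups hold 931 and 959 members.

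The 3 members just inside the 5000 bp limit lay 5003, 5019 and 5022 bp from H3K4me3, and the 3 constant regions just outside it 4998, 4994 and 4991 bp. The nearest member, chr12:54522632-54523645, measured 535, 434 and 711 bp in K27M-Tag against 477, 621 and 358 bp in WT-Tag. The nearest region on the other side of the limit, chr2:101567760-101569248, measured 1100, 1177 and 1354 bp against 514, 866 and 755 bp. With limits of 2000 and 10000 bp there would be 3946 and 2125 members.

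Members occurred at 1.24 per Mb of autosome, measured to the last peak of each chromosome, against 2.77 per Mb for overlapping regions. Chromosome 11 was the densest, with 259 members at 2.13 per Mb, and chromosome 3 the sparsest, with 124 at 0.777 per Mb. The densities of members and of overlapping regions went together over the 19 chromosomes, with a Pearson's r of 0.89 and a Spearman's rho of 0.82, and an r of 0.76 without chromosome 11. These points share the same lists. Members made up 32.9% of the constant regions on chromosome 16 and 31.7% on chromosome 1, and 22.1% on chromosome 15. The share of members called wider ran from 19.01% on chromosome 15 to 41.9% on chromosome 3, against 43.5% of all constant regions.

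**Figure D4:**
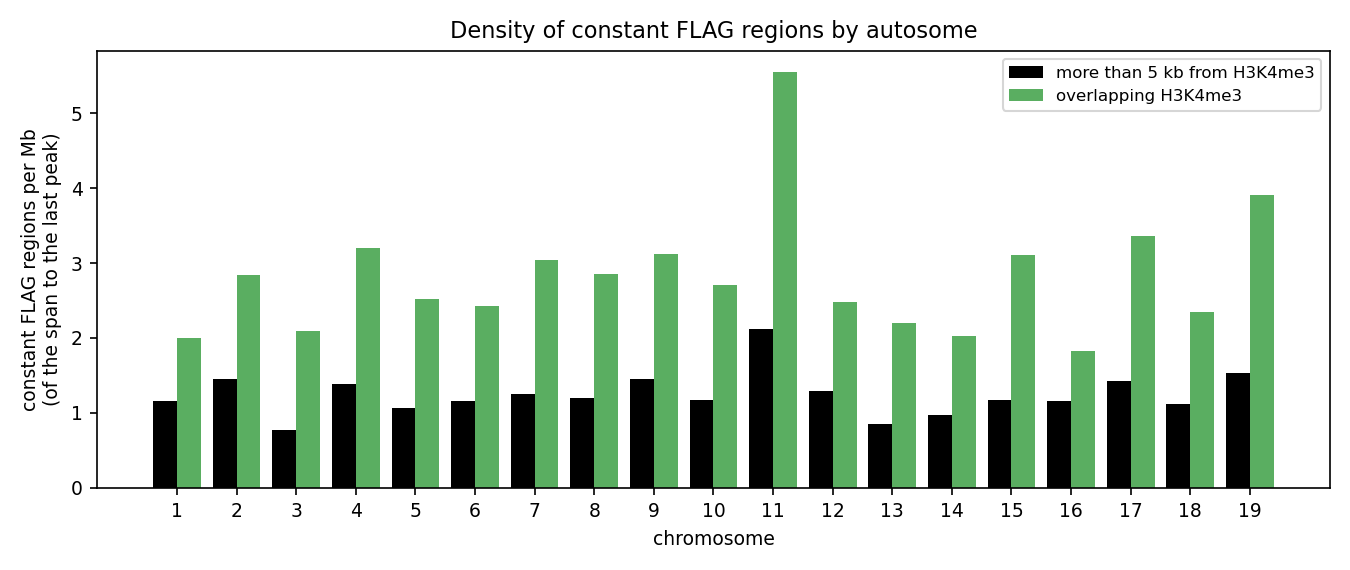
Constant FLAG regions per Mb on each autosome, counted over the span up to the last peak, with members in black and regions overlapping H3K4me3 in green. Chromosome 11 has the tallest bars of both kinds, with 2.13 members per Mb, and chromosome 3 the lowest black bar, with 0.777.

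On a smaller scale, 1142 of 2482 windows of 1 Mb held a member, 422 of them 1 only, and 171 windows with 5 or more held 1179 members. Of all members, 596 (19.5%) had another within 5 kb and 1337 (43.7%) within 50 kb, and the median distance to the next was 71.0 kb, against 23.7 kb among overlapping regions. A FLAG region of any kind lay within 5 kb of 2345 members (76.7%). Within 500 kb of a member stood a median of 30 H3K4me3 regions, against 40 around flanking and 34 around overlapping regions. The nearest H3K4me3 region was present in all 6 H3K4me3 lists for 48.5% of members, and overlapped a constant FLAG region for 30.6%. Members with another member within 5 kb were called wider in 21.6% of cases, and those without in 31.4%, against 43.5% of all constant regions.

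The calls in the 3 windows with the most members are given as counts, and differences between windows were not tested. Between 137 and 138 Mb of chromosome 4, 8 of 16 members were wider and 5 higher in K27M-Tag, and none narrower or lower, where 43.5% of all constant regions were wider and 37.7% higher. Between 35 and 36 Mb of chromosome 17, among 71 H3K4me3 regions, 4 of 16 members were wider and 4 higher, while 5 were lower in summit coverage. Between 114 and 115 Mb of chromosome 6, 2 of 15 members were wider, 1 narrower, 1 higher and 4 lower, and the median log2 change of breadth was -0.28, against 0.63 over all members. Of all constant regions 1.81% were lower and 0.563% narrower, and of all members 3.34% and 1.01%.

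Members called lower in summit coverage had a smaller median distance to H3K4me3 than those called wider and higher. The 102 lower members lay a median of 11663 bp from H3K4me3, had a median of 47 H3K4me3 regions within 500 kb, and had another member within 5 kb in 32.4% of cases. For the 463 members both wider and higher the same values were 17720 bp, 26 regions and 14.3%, and for the 1781 members without a call 14732 bp, 31 regions and 22.0%. A local background over 1.5 times was found in 26.5% of the WT-Tag values and 10.8% of the K27M-Tag values of lower members, against 17.6% and 13.4% for members both wider and higher. Its part in these calls was not tested. These groups were formed by their change between genotypes, and the comparison is a description.

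The 5 highest-ranked members had high scores in every list. They were ranked by their lowest within-list percentile of the peak score, a value the authors' caller assigned. This rule favours members with high scores in both genotypes. These 5 therefore cannot show how far strong sites varied, and their values are given as a description. The first, chr11:107643906-107648089, stood at percentile 99.2 or above in every list, 5085 bp from H3K4me3. Its breadth was 3701, 3536 and 3790 bp in K27M-Tag against 3528, 4148 and 3913 bp in WT-Tag, and its summit coverage 16.1, 15.6 and 17.2 times the background against 15.9, 14.8 and 14.4. The ranges of breadth overlapped. limma gave -0.07 on the log2 scale (SE 0.13, adjusted p = 0.671) for breadth and 0.12 (SE 0.15, adjusted p = 0.558) for summit coverage, the latter turning to -0.20 and the former to -0.98 (adjusted p = 0.00397) with lists centred on their medians.

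The next, chr18:75947015-75950040, lay 28337 bp from H3K4me3 and measured 2959, 1795 and 2263 bp in K27M-Tag but 604, 538 and 827 bp in WT-Tag, with no overlap. Its log2 change in breadth was 1.83 (SE 0.28, limma adjusted p = 0.00228, and 0.92 with centred lists). Summit coverage was 19.6, 14.4 and 18.6 times the background in K27M-Tag against 11.7, 11.3 and 13.8 times (log2 change 0.51, SE 0.16, limma adjusted p = 0.00757). Dropping K27M-Tag replicate 1 (adjusted p = 0.0719) or 3 (0.0566), or centring the lists (0.314), ended that call. The 6 summits lay within 134 bp. The local background there was 1.38, 1.35 and 1.46 times the background coverage in K27M-Tag against 1.19, 1.00 and 0.999 times in WT-Tag. The deposited fold overlapped between genotypes, at 11.75, 8.88 and 10.89 against 7.92, 8.96 and 10.86. The part of the local background in the difference in summit coverage was not tested.

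Of the other 3, chr5:113025779-113027732 had a breadth of 1522, 1219 and 1954 bp in K27M-Tag against 1097, 1114 and 1643 bp in WT-Tag, which overlapped. At chr1:157038229-157040860 it was 2192, 2243 and 2363 bp against 1786, 2059 and 1802 bp, without overlap. Neither passed the test (log2 changes of 0.28 and 0.27, limma adjusted p = 0.404 and 0.216). With centred lists both turned negative, to -0.63 at the first (adjusted p = 0.0815) and -0.64 at the second, which was then called narrower (adjusted p = 0.038). With gaps of up to 1000 bp joined, the first was called wider (0.87, adjusted p = 0.0178). At chr16:22507450-22510605 the values were 2781, 2856 and 2551 bp against 1911, 1897 and 1613 bp, and the log2 change was 0.60 (SE 0.17, limma adjusted p = 0.0206). That call was lost without any 1 of the K27M-Tag lists (adjusted p = 0.0608 to 0.0851), with the replicate number as a block (0.0576) and without trend (0.0662), and the change turned to -0.31 with centred lists. Its summit coverage was 14.9, 12.3 and 15.0 times the background in K27M-Tag against 9.71, 9.86 and 9.31 times in WT-Tag (log2 change 0.54, SE 0.16, limma adjusted p = 0.00634, and 0.261 with centred lists).

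The 3 largest gains of breadth were ranked by log2 change, a rule that favours members short in WT-Tag. At chr3:108979527-108983376, 52082 bp from H3K4me3, breadth was 2734, 3001 and 2193 bp in K27M-Tag against 370, 434 and 314 bp in WT-Tag. Every K27M-Tag value exceeded every WT-Tag value several times (log2 change 2.83, SE 0.27, limma adjusted p = 0.000913). The K27M-Tag signal there was broken into 4 or 5 peaks per list, against 1 or 2 in WT-Tag. Breadth at chr4:55053115-55055549 was 1788, 1792 and 2111 bp in K27M-Tag against 183, 326 and 319 bp in WT-Tag (log2 change 2.82, SE 0.34, limma adjusted p = 0.0012). Its summit coverage was 7.59, 5.99 and 6.67 times the background in K27M-Tag against 6.15, 5.51 and 6.01 times in WT-Tag, which overlapped. The gain there was one of breadth, with a log2 change of summit coverage of 0.19 (limma adjusted p = 0.401). At chr10:58101610-58103882 breadth was 2273, 2062 and 2128 bp in K27M-Tag against 188, 355 and 427 bp in WT-Tag (log2 change 2.82, SE 0.36, limma adjusted p = 0.0013). The local background there was 1.63 to 1.73 times the background coverage in the WT-Tag lists and 0.999 to 1.00 in the K27M-Tag lists, and its part in the gain was not tested.

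Of the 3 largest gains of summit coverage, 2 lay near each other on chromosome 8. At chr8:121040551-121043152 summit coverage was 10.1, 14.7 and 14.2 times the background in K27M-Tag against 5.18, 5.51 and 6.01 times in WT-Tag (log2 change 1.21, SE 0.18, limma adjusted p = 4.67e-07). Its breadth of 2502, 2433 and 2550 bp in K27M-Tag hardly varied between lists and stood against 484, 750 and 587 bp. At chr8:121350674-121352196 it was 11.4, 10.8 and 10.3 times against 6.15, 4.35 and 4.204 times (log2 change 1.16, SE 0.19, limma adjusted p = 1.94e-06). The third, chr7:135693054-135695985, reached 16.5, 16.8 and 16.9 times in K27M-Tag against 8.74, 8.41 and 6.31 times in WT-Tag (log2 change 1.11, SE 0.17, limma adjusted p = 4.12e-07). All 3 were also wider, and none of the 3 showed overlap between genotypes in either measure.

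Without centring, losses were called at fewer members than gains. At chr8:73094164-73095497 breadth was 238, 269 and 423 bp in K27M-Tag against 927, 1005 and 1164 bp in WT-Tag (log2 change -1.77, SE 0.34, limma adjusted p = 0.0047, and -2.69 with centred lists). Summit coverage fell with it, at 5.38, 5.69 and 8.06 times the background against 10.0, 11.3 and 9.61 times (log2 change -0.71, SE 0.19, limma adjusted p = 0.00142), the third largest loss of that measure. At chr8:97531600-97533957 breadth was 1081, 260 and 920 bp against 1891, 2297 and 2081 bp (log2 change -1.71, SE 0.49, limma adjusted p = 0.0211). The adjusted p was 0.0584 and 0.0571 without WT-Tag replicates 2 and 3, and the change -1.06 without K27M-Tag replicate 2. Joining gaps of up to 1000 bp reduced the change to -0.54 and ended the call (adjusted p = 0.0976). With centred lists it was -2.62. At chr15:81733126-81734644 it was 299, 269 and 515 bp against 572, 1453 and 1328 bp (log2 change -1.58, SE 0.45, limma adjusted p = 0.0206). That call was lost without K27M-Tag replicate 1 or 2 or WT-Tag replicate 2 or 3 (adjusted p = 0.0600 to 0.0711), and the change was -0.82 with such gaps joined and -2.49 with centred lists.

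The largest losses of summit coverage both fell into the window of chromosome 6 described above. At chr6:114397807-114399369 summit coverage was 5.70, 5.99 and 5.83 times the background in K27M-Tag against 8.09, 11.3 and 11.7 times in WT-Tag (log2 change -0.81, SE 0.19, limma adjusted p = 0.000374). Its breadth of 408, 931 and 689 bp overlapped the WT-Tag values of 523, 1146 and 1039 bp. The local background there was 1.22, 1.23 and 1.46 times the background coverage in K27M-Tag against 1.66, 1.91 and 1.95 times in WT-Tag. The deposited fold differed less, at 3.92, 4.11 and 3.52 against 4.24, 5.27 and 5.34. The part of the local background in this loss was not tested. At chr6:114444281-114446283 summit coverage was 6.33, 5.39 and 5.00 times against 11.3, 12.8 and 6.01 times (log2 change -0.78, SE 0.20, limma adjusted p = 0.000958), and WT-Tag replicate 3 lay within the K27M-Tag range.

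**Figure D5:**
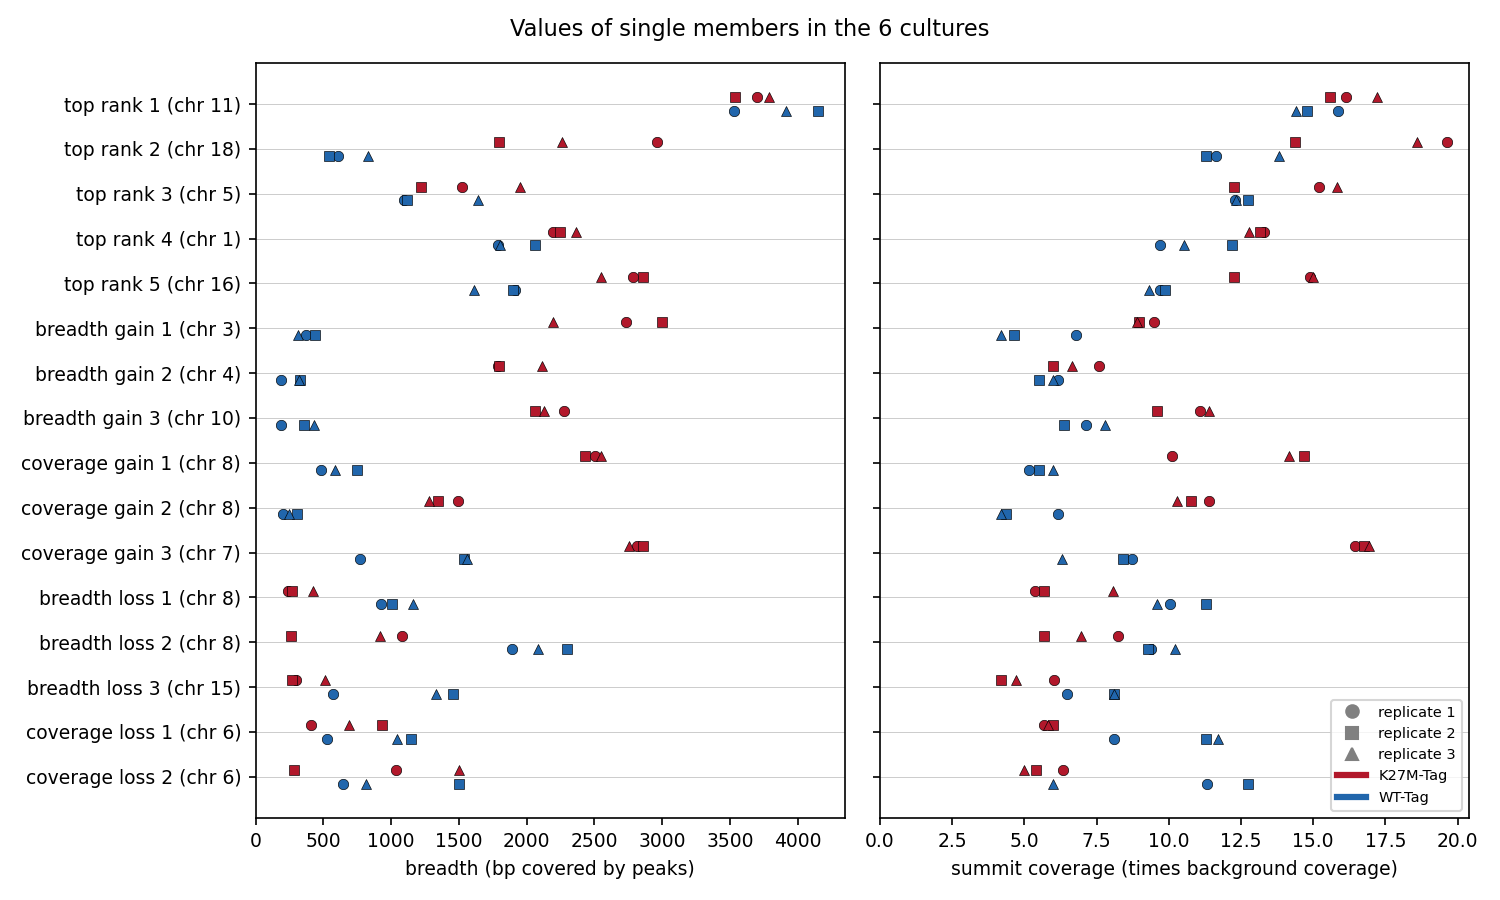
Breadth in bp (left) and summit coverage in multiples of the background coverage (right) of the 5 highest-ranked members and of the members with the largest gains and losses, in each of the 6 cultures. Symbols are replicates, red K27M-Tag and blue WT-Tag. The first breadth gain spans 2193 to 3001 bp in red and 314 to 434 bp in blue, while the first-ranked member has both colours between 3528 and 4148 bp.

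At the 3 widest members the genotypes overlapped in breadth. Ranking by the mean over the 6 lists favours members wide in both genotypes. By mean breadth over the 6 lists, chr8:97535372-97540904 measured 4929, 3706 and 4829 bp in K27M-Tag against 4573, 5139 and 5495 bp in WT-Tag. It begins next to the second of the breadth losses above. At chr11:120665524-120672207 breadth was 5380, 3972 and 4750 bp against 2058, 5152 and 4423 bp, with WT-Tag replicate 1 far below the rest. At chr8:113260583-113265014 it was 4217, 4013 and 4226 bp against 3480, 4168 and 4307 bp. None of the 3 passed the limma test in breadth (adjusted p = 0.317, 0.335 and 0.697).

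The 3 members farthest from H3K4me3 lay on chromosomes 14, 10 and 1. At chr14:24197649-24198596, 468952 bp away, breadth was 808, 757 and 828 bp in K27M-Tag against 245, 271 and 880 bp in WT-Tag. At chr10:100779509-100780088, 450659 bp away, it was 397, 503 and 543 bp against 254, 214 and 234 bp. At chr1:144976323-144977878, 410411 bp away, it was 1185, 600 and 1283 bp against 367, 580 and 340 bp. The K27M-Tag values exceeded all WT-Tag values at the last 2, and at the first WT-Tag replicate 3 was the widest of all. Their summit coverage lay between 4.85 and 8.99 times the background in the 6 lists.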

How the data were processed

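Each of 12 ChIP-seq libraries has its own deposited peak list in narrowPeak order, on build mm9 per the file headers' peak names. BWA 0.7.17-r1188, MACS2 2.2.7.1 and bedtools 2.29.2 are named in the submitters' processing notes. The control and threshold are not given in the sources used here, and the 2 input samples, 1 per genotype and joined over cultures, were not analysed here, so lists of a genotype may share a control. The deposited score was used for ranks within a list, and the deposited fold ratio and −log10 p gave pileup k and background l from fold = (k + 1)/(l + 1) and a Poisson tail, within a relative error of 0.0001. The deposited −log10 q was at least 2.00 in every list. Called breadth moves with depth and control. No spike-in factor was applied.

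Peaks were merged at 1 bp. limma 3.58.1 (R 4.3.3, with trend, no pseudocount, Benjamini-Hochberg, threshold 0.05) compared 3 with 3 FLAG lists over 11907 regions. Medians were compared by two-sided exact permutation and sign-flip tests. Nothing in the labels ties cultures to separate embryos, so the p-values measure the spread between these cultures. Python 3.11.15 and scipy 1.17.1 were used, and the code was tested on simulated data.

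The members, measures and naming rule were chosen with earlier results of these data known. The rule took the 3 largest gains and losses per measure past the threshold, the 5 highest-ranked, 3 widest and 3 farthest members, the 3 densest windows and 3 regions on either side of the limit. The groups by local background, neighbours and call were added after seeing the values. Alternatives were other distance limits, H3K4me3 lists of 1 genotype, fewer peaks, other merging, each list left out, centring, a replicate block, no trend and flanking regions as reference. No gene or sequence is named, because an mm9 annotation or genome was not used here.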

Additional observations from a re-analysis of the deposited data

Results flagged for a closer look

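Regions outside chromosomes 1 to 19 entered no comparison. Chromosome X held 21 FLAG regions with a peak in all 6 lists, of which 5 lay more than 5000 bp from H3K4me3. Unplaced contigs held 52 such regions, of which 11 lay more than 5000 bp from H3K4me3. Both counts are listed because the comparisons did not use these data. Whether they are high or low for the length of these sequences was not tested.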

How the results depend on the processing

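Leaving out 1 list at a time gave 3127 to 4303 members (a peak required in the other 5 lists), 375 to 937 wider, 6 to 51 narrower, 374 to 917 higher and 54 to 101 lower members. The K27M-Tag minus WT-Tag difference was 261 to 386 bp in median breadth and 0.14 to 0.25 in log2 summit coverage. Members minus overlapping regions gave -451 to -352 bp and -0.24 to -0.18 in log2 (exact p = 0.0625, the smallest that 5 lists allow), and the genotype difference of that gap -446 to -402 bp and -0.27 to -0.24. Under fewer peaks or stricter cover the members numbered 1123 (upper 50%), 1631 (equal sizes) and 353 (50% cover). Of the 1123 members of the upper 50%, 344 were wider, 12 narrower, 347 higher and 24 lower. Of the 1631 at equal sizes, 584 were wider, 20 narrower, 630 higher and 15 lower. Fewer regions were tested at both settings, so these counts cannot be set directly against those of the full lists. The shares of all constant regions are not given here for these settings or with 1 list left out. Centring gave 110 wider, 448 narrower, 107 higher and 573 lower. With flanking regions as reference the differences were -23.2 bp and 0.026, and their genotype differences 62.7 bp and 0.092. Centring also reversed summit coverage at chr11:107643906-107648089 (-0.20), breadth and summit coverage at chr5:113025779-113027732 (-0.63 and -0.12) and at chr1:157038229-157040860 (-0.64 and -0.038), and breadth at chr16:22507450-22510605 (-0.31). The cause was not tested.

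The labels give experiment numbers 1 to 3 to cultures of both genotypes without saying that they mark a shared litter, batch or day. The deviations of same-numbered cultures were uncorrelated over regions (correlations of -0.01 to 0.01), and the cultures were not treated as pairs. Such correlations cannot show a shift shared by all regions of a list, so a shared batch or day stays possible. With the experiment number as a block 762 members were wider, 20 narrower, 682 higher and 101 lower (shares of all constant regions not given here). Of 242 values of single members under the alternatives 218 kept direction and side of the threshold, 6 reversed as listed, and of the others 16 lost the call and 2 gained it. Among the reversed, chr1:157038229-157040860 gained a call in breadth and chr16:22507450-22510605 lost one. The other distance limits, H3K4me3 lists of 1 genotype (3315 and 4281 members), joined gaps, log2 scale, fit without trend and members without high local background kept the direction of each difference, and every count within 1.5 times. Summit pileups of 21 to 30 fragments limit single regions.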

Other observations

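One member outside the naming rule was chosen after its values were seen, for the highest local background. At chr6:4873706-4874272, 16059 bp from H3K4me3, the local background was 9.66, 9.60 and 10.1 times the background coverage in K27M-Tag and 9.98, 12.3 and 12.3 times in WT-Tag. Summit coverage was 30.7, 26.0 and 30.8 times against 28.8, 30.7 and 24.3 times, the highest of all members in every list, and the 6 summits lay within 14 bp. The deposited fold there was 1.95 to 3.11. The local background exceeded 1.5 times in all 6 lists at 14 members, and in at least 1 list at 1448 (47.4%). Called wider were 29.5% of these 1448 and 29.5% of the other 1608, and called higher 23.4% and 23.3%. Over all constant regions, 43.5% were wider and 37.7% higher.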
